A study of Homo sapiens with 8 samples.

Results

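The question addressed here was what curcumin (Cur) and piperine (Pip) added to the transcriptome of cells that already received NaB. The library labelled Hep3B with NaB, Cur and Pip (NaB+Cur+Pip) was set against the library labelled Hep3B with NaB alone. Both held wild-type cells treated for 48 h, the first with 1700 μM NaB, 30 μM Cur and 6 μM Pip and the second with 1700 μM NaB. NaB is the study's name for sodium pentaborate pentahydrate, a boron compound, curcumin is the yellow polyphenol of turmeric, and piperine is the alkaloid of black pepper. All 12289 genes with at least 1 FPKM (Cufflinks' abundance of a transcript, its fragments scaled by its length and by library size) in 1 or both of these 2 libraries were compared, of 15447 genes that reached that level in any of the 8 libraries of the study. Those 8 libraries covered control, NaB, Cur+Pip and NaB+Cur+Pip for HepG2 and for Hep3B, which are lines established from human liver tumours, with 1 library for each condition. No difference below therefore has a replicate check, and the 95% interval printed with an FPKM covers only the error of estimating it within 1 library. RNA was isolated in triplicate, and the sources used here do not say whether the isolates were pooled.

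Proteins that fold badly in the endoplasmic reticulum (ER) set off the unfolded protein response, in which the sensors ATF6, IRE1 and PERK raise chaperones such as HSPA5 (BiP) and slow translation. PERK shares the integrated stress response with other kinases that sense lack of amino acids, haem or double-stranded RNA, and its transcription factors ATF4 and CHOP (DDIT3) act on amino acid synthesis, on redox balance and on cell death genes. Misfolding in the cytosol instead activates HSF1, the factor of the heat shock genes. These programs act in liver cells as in most others, and the GADD45 and AP-1 genes answer many kinds of damage beside them.

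The 2 libraries did not show the marker genes of the labelled line. Of 28 hepatocyte markers, only CPS1, a mitochondrial urea cycle enzyme, reached 1 FPKM in either library, at 74.5 FPKM in NaB+Cur+Pip and 208 FPKM in NaB, while ALB, AFP and TTR were listed at 0 in both and 26 of the 28 were at 0 in each. A listed 0 here means that no transcript was assigned and does not show that a gene was silent, since ALB and AFP were also listed at 0 in the HepG2 control. In the HepG2 pair, 22 of the 28 reached 1 FPKM with NaB+Cur+Pip and 23 with NaB. Intestinal alkaline phosphatase (ALPI) stood at 26.3 FPKM in NaB+Cur+Pip and 15.2 FPKM in NaB, and the fibroblast marker list summed to 38.9 FPKM in NaB+Cur+Pip and 86.0 FPKM in NaB. The samples are therefore called Hep3B-labelled. The NaB+Cur+Pip library held 31457 assembled transcripts from an estimated 35700000 fragments, and the NaB library 26311 from an estimated 32200000. Single-exon transcripts that lay in no gene were 18.4% of the transcripts in NaB+Cur+Pip and 10.1% in NaB.

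Stretches before 3 annotated gene starts are shown first because their genes led the ER and heat shock results and each stretch holds a known stress element. They were taken from the RefSeq promoter table (GRCh38.p14), are written 5′ to 3′ on the strand of the gene, and end before both the RefSeq and the GENCODE start. HSPA5 (chr9:125241383-125241593, minus strand) holds in capitals the ER stress response element, CCAAT and CCACG with 9 bases between them. HERPUD1 (chr16:56931892-56932141, plus strand) holds in capitals a match to the amino acid response element TGATGNAA, read on the other strand. HSPA6 (chr1:161524290-161524539, plus strand) holds in capitals 2 matches to the heat shock element GAANNTTC.
HSPA5: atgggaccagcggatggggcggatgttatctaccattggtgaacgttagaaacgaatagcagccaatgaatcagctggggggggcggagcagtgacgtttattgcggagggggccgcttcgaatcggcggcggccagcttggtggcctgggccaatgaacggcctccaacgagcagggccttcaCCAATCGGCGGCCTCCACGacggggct
HERPUD1: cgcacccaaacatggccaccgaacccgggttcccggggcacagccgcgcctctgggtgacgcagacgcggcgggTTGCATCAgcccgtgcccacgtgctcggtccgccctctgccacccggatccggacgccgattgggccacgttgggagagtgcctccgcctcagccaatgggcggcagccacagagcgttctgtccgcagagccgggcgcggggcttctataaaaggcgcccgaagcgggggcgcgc
HSPA6: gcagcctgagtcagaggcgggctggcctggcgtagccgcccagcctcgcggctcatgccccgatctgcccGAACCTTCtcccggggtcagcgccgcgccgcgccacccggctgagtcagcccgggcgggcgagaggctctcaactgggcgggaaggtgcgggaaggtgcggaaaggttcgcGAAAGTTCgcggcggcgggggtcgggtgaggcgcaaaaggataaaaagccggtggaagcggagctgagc

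Both strands of the 250 bases before the start were searched in 27305 promoters. The ER stress response element was found in 0.0806% of all promoters, in 0.173% of the 9238 promoters of compared genes, and in 7 of the 20 promoters of ER chaperone genes (CALR, CANX, CRELD2, ERO1B, HSP90B1, HSPA5 and XBP1). The heat shock element was found in 5.85% of all promoters, in 4.04% of those of compared genes and in 5 of 17 promoters of the heat shock list. TGATGNAA was found in 3.19% of all promoters, in 1.31% of those of compared genes and in 3 of 24 promoters of the ATF4 and CHOP list (ASNS, ATF3 and CHAC1). Among the genes that passed the fold threshold upward by both measures described below, the ER stress response element was in 1 of 44 promoters, and the heat shock element and TGATGNAA were in 4 of 44 each. Among those that passed downward, the heat shock element was in 4 of 26 and TGATGNAA in 1 of 26. Only these patterns were searched for, so other stress elements, or forms with another spacing, are not marked in the printed stretches. A match describes letters only, and binding was not measured.

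By the fold threshold of the study, 714 genes were higher in NaB+Cur+Pip than in NaB and 591 were lower. The study also required a p-value cut-off and a minimum count, which were not applied here. These numbers are therefore not comparable with its own counts of genes. Fold changes are given as log2((FPKM + 1) in NaB+Cur+Pip over (FPKM + 1) in NaB), a scale that understates the change of low genes, and the threshold was 1.5 on it, which is 2.83-fold. The background share of calls over all genes tested was 5.81% higher and 4.81% lower, and the median of all genes was 0.07. Most of these calls came from genes that were assembled in only 1 library: 490 of the higher genes had no assigned transcript in NaB and 428 of the lower genes had none in NaB+Cur+Pip. Of the 10986 genes with an assigned transcript in both libraries, 224 (2.04%) were higher and 163 (1.48%) lower, and 89.7% lay within 1 of no change. When transcript depth was apportioned over the annotated exons of every gene, 80 of these (0.728%) stayed above the threshold and 64 (0.583%) stayed below it.

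**Figure D1:**
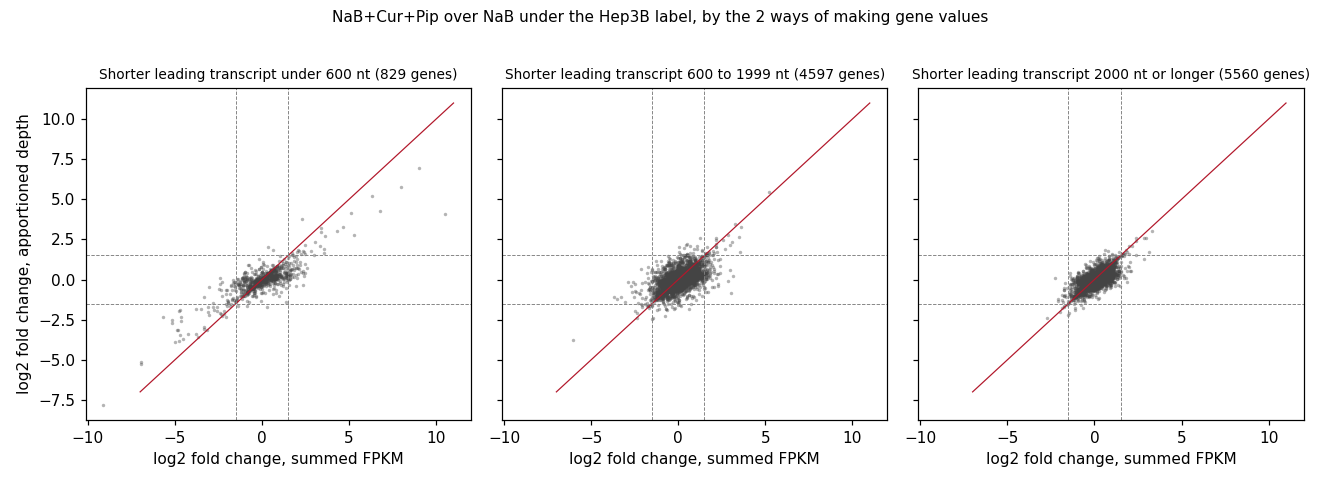
Log2 fold change of NaB+Cur+Pip over NaB under the Hep3B label for the 10986 genes with an assigned transcript in both libraries, from summed FPKM (horizontal axis) and from depth apportioned over annotated exons (vertical axis). The 3 panels divide genes by the leading transcript, taken in the library where it was shorter, the red line marks equal values, and dashed lines mark the threshold of 1.5. Points leave the red line most in the left panel, where 9.89% of genes were higher and 9.05% lower, against 0.665% and 0.45% in the right panel.

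How long the assembled transcripts were moved with the number of calls. Among genes listed in both libraries, 9.89% were higher and 9.05% lower where the shorter of the leading transcripts was under 600 nt, and 0.665% were higher and 0.45% lower where it was 2000 nt or longer. The part of transcript length in any single call was not tested. Across the genes listed in both libraries, the folds from summed FPKM and from apportioned depth had a Pearson r of 0.73, given as a description since both come from the same assemblies. Folds are quoted below from summed FPKM, with the apportioned fold beside them where it is named.

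The ER chaperones were the gene group with the highest median. Of 20 members with an assigned transcript in both libraries, 19 were above no change (54.5% of all genes were), 5 passed the threshold upward and none downward, against the background of 2.04% upward, and the median was 0.93 beside 0.06 for all genes. The 4 that also passed with apportioned depth were HSPA5, HERPUD1, DNAJB9 and SDF2L1. HSPA5 is a chaperone of the ER lumen with DNAJB9 and SDF2L1 as partners, and HERPUD1 serves the degradation of misfolded ER proteins.

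HSPA5, the main Hsp70 chaperone of the ER and the brake on all 3 stress sensors, had 1512 FPKM (interval 1473 to 1552) in NaB+Cur+Pip and 284 FPKM (271 to 296) in NaB, a log2 fold change of 2.41. It had 611 FPKM in Cur+Pip and 223 FPKM in the control. HSPA5 was thus highest with the 3 agents together, and the libraries without Cur and Pip were the lowest pair. With only the highest transcript of each gene its log2 fold change was 1.22, under the threshold, while the other alternatives run kept it past 1.5. HERPUD1 had 225 FPKM (215 to 235) in NaB+Cur+Pip and 49.4 FPKM (46.4 to 52.5) in NaB, a log2 fold change of 2.16. The ER co-chaperone DNAJB9 (ERdj4) had 38.9 FPKM (36.8 to 40.9) in NaB+Cur+Pip and 9.15 FPKM (8.34 to 9.97) in NaB, a log2 fold change of 1.97. The intervals of each of these genes did not overlap between the libraries, which held for 7146 of the 10986 genes listed in both. SDF2L1, a partner of DNAJ proteins in the ER, had 97.4 FPKM in NaB+Cur+Pip and 28.2 FPKM in NaB, a log2 fold change of 1.75.

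The other chaperones were higher by less than the threshold. DNAJC3 (p58IPK, an inhibitor of PERK) had a log2 fold change of 1.38, HSP90B1 (GRP94) one of 1.16, at 577 FPKM in NaB+Cur+Pip and 258 FPKM in NaB, and HYOU1 (GRP170) one of 0.98. MANF, a secreted ER stress protein, was at 0.95 and the disulphide isomerase PDIA3 at 0.92. PDIA6, another isomerase of the same family, stood level, with 247 FPKM in NaB+Cur+Pip and 252 FPKM in NaB. XBP1, the factor that IRE1 activates by splicing, was at 0.48, and total FPKM does not separate its spliced form. ERO1B passed the threshold at 2.07 but was low, at 4.36 FPKM in NaB+Cur+Pip and 0.28 FPKM in NaB, and its apportioned fold was 0.40. CALR (calreticulin) had no assigned transcript in NaB+Cur+Pip and 499.7 FPKM in NaB, while its apportioned fold was -0.19, so no difference is reported for it.

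Genes of the ATF4 and CHOP response were spread more widely. Of 23 members listed in both libraries, 6 passed the threshold upward and none downward, 17 lay above no change, and the median was 0.56. The background over genes listed in both libraries was 2.04% upward and 1.48% downward, with 54.5% above no change. Over all 27 members measured, including those assembled in only 1 library, 8 were higher and 2 lower, where the background was 5.81% and 4.81%. ATF3, a stress-inducible repressor of the ATF/CREB family, had 77.3 FPKM (73.5 to 81.1) in NaB+Cur+Pip and 16.2 FPKM (14.98 to 17.4) in NaB, a log2 fold change of 2.19. CHAC1, which breaks down glutathione, had 9.997 FPKM (9.01 to 10.99) in NaB+Cur+Pip and 1.42 FPKM (1.04 to 1.80) in NaB, a log2 fold change of 2.18. NUPR1, a small chromatin-associated stress protein, had 64.6 FPKM in NaB+Cur+Pip and 11.3 FPKM in NaB, a log2 fold change of 2.41 that was 1.30 with apportioned depth. NUPR1 was higher still without NaB, at 276 FPKM in Cur+Pip and 163 FPKM in the control. ATF3, CHAC1 and NUPR1 are direct or indirect targets of ATF4 in human cells.

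TRIB3, a pseudokinase that restrains ATF4 and CHOP and binds AKT, had 59.7 FPKM in NaB+Cur+Pip and 17.3 FPKM in NaB, a log2 fold change of 1.73. SESN2 (sestrin 2), an inhibitor of mTORC1 signalling, had 15.7 FPKM in NaB+Cur+Pip and 3.15 FPKM in NaB, a log2 fold change of 2.01. PHGDH, the first enzyme of serine synthesis, had 46.3 FPKM in NaB+Cur+Pip and 15.004 FPKM in NaB, a log2 fold change of 1.56 (1.29 apportioned). DDIT3, which encodes CHOP, was assembled at 199.8 FPKM (189 to 210) in NaB+Cur+Pip and was listed at 0 in NaB and in Cur+Pip, with 8.46 FPKM in the control, and no fold is given. ASNS, the asparagine synthetase, was listed at 47.5 FPKM in NaB+Cur+Pip and at 0 in NaB and in the control, with 131 FPKM in Cur+Pip, and no fold is given for it. ATF4 itself was listed at 0 in NaB+Cur+Pip and at 237 FPKM in NaB, with an apportioned fold of -0.10, and no difference is reported. AARS1, the alanyl-tRNA synthetase, had 61.4 FPKM in NaB+Cur+Pip and 10.8 FPKM in NaB, a log2 fold change of 2.40 (1.53 apportioned). Its leading transcript in NaB overlapped 2 coding genes, and AARS1 had no value when transcripts over several coding genes were left out. In the libraries without NaB it had 158 FPKM in Cur+Pip and 118 FPKM in the control, both above the NaB+Cur+Pip level.

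Amino acid transporters of the same list stayed near their NaB level. SLC7A5 (LAT1) had 312 FPKM in NaB+Cur+Pip and 431 FPKM in NaB, and SLC7A1 had 21.2 FPKM in NaB+Cur+Pip and 21.99 FPKM in NaB. DDIT4 (REDD1), an mTORC1 inhibitor, had 54.3 FPKM in NaB+Cur+Pip and 61.4 FPKM in NaB. The stress cytokine GDF15 was the member with the most negative fold among those listed in both libraries, with 94.5 FPKM (88.8 to 100.2) in NaB+Cur+Pip and 266 FPKM (254 to 278) in NaB, a log2 fold change of -1.48, just inside the threshold. GDF15 took the opposite direction without NaB, at 466 FPKM in Cur+Pip and 130 FPKM in the control, a log2 fold change of 1.83.

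The list of cytosolic heat shock genes was mixed, and it holds the mitochondrial HSPD1 but not HSPA6. Of 16 members listed in both libraries, 3 passed the threshold upward and none downward, against the background of 2.04% upward, and the median was 0.25. Over all 18 members measured, including those assembled in only 1 library, 5 were higher and none lower, where the background was 5.81% higher. DNAJB1 (Hsp40), the co-chaperone of HSPA8 and HSPA1A, had 223 FPKM (215 to 232) in NaB+Cur+Pip and 74.7 FPKM (71.0 to 78.5) in NaB, a log2 fold change of 1.57. HSPB8, a small heat shock protein, had 85.6 FPKM in NaB+Cur+Pip and 28.6 FPKM in NaB, a log2 fold change of 1.55. Its partner BAG3, which directs clients to autophagy, had 95.1 FPKM in NaB+Cur+Pip and 32.1 FPKM in NaB, a log2 fold change of 1.54 (0.87 apportioned). Each of the 3 missed the threshold under some alternatives, at values as low as 1.29 for DNAJB1, 1.43 for HSPB8 and 0.52 for BAG3. The constitutive chaperones differed little: HSPA8 had 1301 FPKM in NaB+Cur+Pip and 1197 FPKM in NaB, HSP90AA1 had 771 FPKM in NaB+Cur+Pip and 667 FPKM in NaB, and HSP90AB1 had 669 FPKM in NaB+Cur+Pip and 766 FPKM in NaB. The mitochondrial chaperonin HSPD1 was lower, at 294 FPKM in NaB+Cur+Pip and 636 FPKM in NaB, a log2 fold change of -1.11.

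HSPA6, a strictly inducible Hsp70 of human cells whose upstream stretch is printed above, was outside that list and had the highest fold of the genes named by the rule whose leading transcript was 600 nt or longer in both libraries. It had 56.2 FPKM (53.6 to 58.9) in NaB+Cur+Pip and 0.55 FPKM in NaB, a log2 fold change of 5.21 (5.43 apportioned). It had 13.8 FPKM in Cur+Pip and was listed at 0 in the control, so it was assembled above 1 FPKM only in the libraries with Cur and Pip. In HepG2 it had 224 FPKM with NaB+Cur+Pip and was listed at 0 with NaB. HSPA6 shares much of its sequence with the HSPA7 pseudogene and with other Hsp70 genes, so its level is uncertain to that extent.

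**Figure D2:**
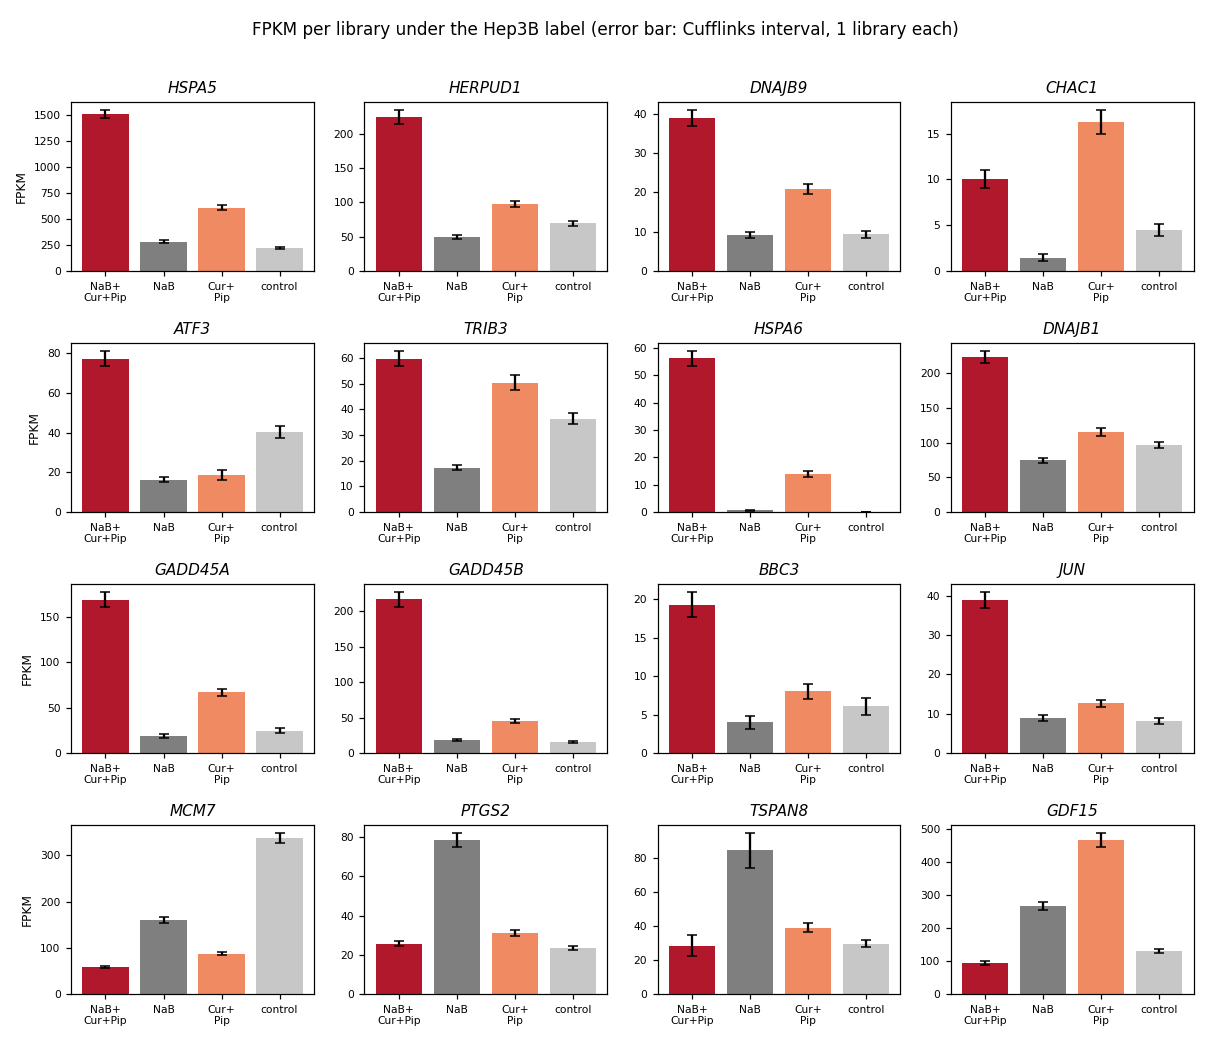
FPKM of 16 genes in the 4 Hep3B-labelled libraries, NaB+Cur+Pip (dark red), NaB (dark grey), Cur+Pip (orange) and control (light grey), each axis starting at 0. Error bars are Cufflinks intervals of 1 library, and for HSPA5, HERPUD1, DNAJB9, ATF3, GADD45A, GADD45B and JUN the NaB+Cur+Pip bar is the tallest, while MCM7, PTGS2, TSPAN8 and GDF15 are lower in NaB+Cur+Pip than in NaB.

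Damage-response genes leaned upward, with few past the threshold. Of 22 p53 targets present in both libraries, 18 were above no change (54.5% of all genes were), and the median was 0.33. The threshold was passed upward by 2 (GADD45A and BBC3) and downward by none, where the background was 2.04% upward and 1.48% downward. GADD45A, which binds PCNA and CDK1 and activates stress kinases, had 169 FPKM (161 to 177) in NaB+Cur+Pip and 18.6 FPKM (16.8 to 20.4) in NaB, a log2 fold change of 3.12 (2.36 apportioned). Its paralogue GADD45B had 217 FPKM (207 to 227) in NaB+Cur+Pip and 18.1 FPKM (16.6 to 19.5) in NaB, a log2 fold change of 3.51 (2.68 apportioned). BBC3 (PUMA), a BH3-only protein that opens the mitochondrial death pathway, had 19.3 FPKM (17.7 to 20.9) in NaB+Cur+Pip and 4.0 FPKM (3.17 to 4.83) in NaB, a log2 fold change of 2.02. All 3 had non-overlapping intervals, as did 7146 of the 10986 genes listed in both libraries.

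CDKN1A (p21), the CDK inhibitor, had 141 FPKM in NaB+Cur+Pip and 77.9 FPKM in NaB, a log2 fold change of 0.85 that missed the threshold. PMAIP1 (NOXA), another BH3-only gene, had 54.2 FPKM in NaB+Cur+Pip and 43.9 FPKM in NaB, a log2 fold change of 0.30. BAX, the pore-forming effector, was lower at 29.6 FPKM in NaB+Cur+Pip and 70.4 FPKM in NaB, a log2 fold change of -1.22 (-0.56 apportioned). Over 39 members of the apoptosis machinery, 19 were above no change (48.7%, beside 54.5% of all genes), and the median was -0.02. Upward 1 passed (BBC3) and downward none, where the background was 2.04% upward and 1.48% downward.

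Immediate early genes gave 4 members past the threshold upward of 25 listed in both libraries, none downward, and a median of 0.22. The background was 2.04% upward and 1.48% downward. The 4 members were ATF3, JUN, FOSB and CCN2, of which 3 also passed with apportioned depth. CCN2, at 1.55, missed the threshold with apportioned depth (1.45), with median-of-ratios scaling (1.49), with a pseudocount of 5 (0.91) and with the highest transcript alone (0.91). JUN, the AP-1 subunit, had 38.9 FPKM (36.9 to 40.9) in NaB+Cur+Pip and 8.93 FPKM (8.23 to 9.63) in NaB, a log2 fold change of 2.01 that was 1.10 with the highest transcript alone. FOSB had 14.05 FPKM in NaB+Cur+Pip and 3.31 FPKM in NaB, a log2 fold change of 1.80. JUNB went the other way, with 50.9 FPKM in NaB+Cur+Pip and 99.6 FPKM in NaB, a log2 fold change of -0.95, and DUSP1, DUSP5 and IER2 lay between -0.24 and 0.56.

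Other genes among the 15 highest by the naming rule included several regulators. SNAI1, the repressor of E-cadherin, had 26.2 FPKM (24.5 to 27.8) in NaB+Cur+Pip and 1.82 FPKM (1.19 to 2.44) in NaB, a log2 fold change of 3.27. RASD1, a Ras-like protein inducible by dexamethasone, had 16.4 FPKM in NaB+Cur+Pip and 0.41 FPKM in NaB, a log2 fold change of 3.63. ID2, an inhibitor of basic helix-loop-helix factors, had 27.0 FPKM in NaB+Cur+Pip and 2.91 FPKM in NaB, a log2 fold change of 2.84. These 3 genes were all under 3 FPKM in NaB. ARC, best known as a synaptic immediate early gene, had 21.2 FPKM in NaB+Cur+Pip and 1.22 FPKM in NaB, a log2 fold change of 3.32. The steroid 5-alpha-reductase SRD5A1 had 53.9 FPKM in NaB+Cur+Pip and 6.03 FPKM in NaB, a log2 fold change of 2.97, yet it stood at 48.9 FPKM in the control, close to its NaB+Cur+Pip level. DYNLL2, a dynein light chain, had 55.9 FPKM in NaB+Cur+Pip and 5.57 FPKM in NaB, a log2 fold change of 3.12 (1.69 apportioned), and PIGP, an enzyme subunit of GPI anchor synthesis, and the zinc finger gene ZNF584 were under 0.5 FPKM in NaB. The lncRNA MIR22HG, host of miR-22, had 17.7 FPKM in NaB+Cur+Pip and 1.56 FPKM in NaB, a log2 fold change of 2.87. The only other lncRNA that met the naming rule, SCAT8, was lower, with 1.23 FPKM in NaB+Cur+Pip and 6.37 FPKM in NaB, a log2 fold change of -1.72 (-1.66 apportioned).

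Of the 15 highest genes 3, and of the 15 lowest 9, rested on a leading transcript under 600 nt in 1 or both libraries. VPS53, a subunit of a Golgi tethering complex, was listed at 7809 FPKM with an interval of 3913 to 11705 in NaB+Cur+Pip, from a leading transcript of 151 nt. In NaB it was listed at 4.33 FPKM, from one of 7481 nt. Its log2 fold change was 10.5, and 1.70 when transcripts under 300 nt were left out, still past the threshold. HNRNPCL1 was listed at 3.91 FPKM in NaB+Cur+Pip and 600 FPKM in NaB, where its leading transcript had 167 nt, and it shares sequence with HNRNPC. TUBA1A, an alpha tubulin, was listed at 51.7 FPKM in NaB+Cur+Pip and 1386 FPKM in NaB, where its leading transcript had 179 nt, and its direction turned when transcripts under 300 nt were left out (0.20). Such values are of the assembly as deposited, and RPS29, SEC61G, COX6C, SNRPE, COX7B, MRPS21 and EEF1B2, small genes with transcribed copies elsewhere in the genome, are uncertain for the same reason.

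Among the 15 lowest genes with longer transcripts, OAS1, an interferon-induced sensor of double-stranded RNA, had 10.4 FPKM (9.48 to 11.3) in NaB+Cur+Pip and 49.98 FPKM (47.2 to 52.7) in NaB, a log2 fold change of -2.16. KARS1, the lysyl-tRNA synthetase, had 34.1 FPKM in NaB+Cur+Pip and 150.6 FPKM in NaB, a log2 fold change of -2.11. The adaptor gene DOK3 had 0.84 FPKM in NaB+Cur+Pip and 8.40 FPKM in NaB, a log2 fold change of -2.35, and FOXRED1, an assembly factor of respiratory complex I, had 2.92 FPKM in NaB+Cur+Pip and 18.9 FPKM in NaB, one of -2.34. AVPI1, a vasopressin-inducible gene, had 72.8 FPKM in NaB+Cur+Pip and 415 FPKM in NaB, but was listed at 0 in the control. SPCS1, a signal peptidase subunit, had 0.48 FPKM in NaB+Cur+Pip and 96.5 FPKM in NaB and was also listed at 0 in the control. The leading transcripts of DOK3, FOXRED1 and SPCS1 had 1 exon in NaB+Cur+Pip, but 24, 11 and 4 exons in NaB. FOXRED1 and SPCS1 had no value without single-exon transcripts, and DOK3 had none without transcripts over several coding genes. These 3 calls thus set unlike assemblies against each other. The interferon list as a whole had 1 of 25 members past the threshold downward, none upward, and a median of -0.29. The background was 1.48% downward and 2.04% upward. IFITM3, a membrane protein that blocks virus entry, had 181 FPKM in NaB+Cur+Pip and 482 FPKM in NaB, a log2 fold change of -1.41.

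Other lower genes past the threshold by both measures were chosen after their values were seen, apart from PTGS2. MUC1, an epithelial mucin, had 4.26 FPKM in NaB+Cur+Pip and 20.9 FPKM in NaB, a log2 fold change of -2.06. The cytokine IL11 had 2.64 FPKM in NaB+Cur+Pip and 13.6 FPKM in NaB, a log2 fold change of -2.01. NOG, the secreted BMP antagonist noggin, had 6.66 FPKM in NaB+Cur+Pip and 24.5 FPKM in NaB, a log2 fold change of -1.73. All 3 were under 7 FPKM with the 3 agents. PTGS2 (COX-2), the inducible prostaglandin synthase and a member of 2 of the lists, had 25.6 FPKM in NaB+Cur+Pip and 78.5 FPKM in NaB, a log2 fold change of -1.58. The tetraspanin TSPAN8 had 28.5 FPKM (22.1 to 34.8) in NaB+Cur+Pip and 84.2 FPKM (74.1 to 94.3) in NaB, a log2 fold change of -1.53. The matrix proteoglycan LUM (lumican), one of the fibroblast markers, had 20.8 FPKM in NaB+Cur+Pip and 61.6 FPKM in NaB, a log2 fold change of -1.52. LUM itself supplied most of the fibroblast sum given above, 38.9 FPKM in NaB+Cur+Pip and 86.0 FPKM in NaB. That sum is therefore no separate measure of what LUM did, and a share of fibroblasts was not tested.

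Cell cycle genes were lower as a group by small amounts. Of 39 genes of G2/M and mitosis listed in both libraries, 35 were below no change, 1 passed the threshold downward and none upward, and the median was -0.43. The background was 1.48% downward and 2.04% upward, with 54.5% of all genes above no change. PLK1, a mitotic kinase, had 62.2 FPKM in NaB+Cur+Pip and 137 FPKM in NaB, a log2 fold change of -1.13. CENPA, the centromeric histone H3, had 21.9 FPKM in NaB+Cur+Pip and 52.1 FPKM in NaB, a log2 fold change of -1.22. UBE2C, the ubiquitin-conjugating enzyme of the anaphase-promoting complex, was the member past the threshold, with 8.97 FPKM in NaB+Cur+Pip and 81.7 FPKM in NaB, a log2 fold change of -3.05 (-1.41 apportioned). Of 42 genes of G1/S and DNA replication, 31 were below no change, 1 passed upward, none downward, and the median was -0.23. MCM7, a subunit of the replicative helicase, had 57.8 FPKM in NaB+Cur+Pip and 160.2 FPKM in NaB, a log2 fold change of -1.45. The member past the threshold upward, the transcription factor E2F3, was at 1.73 with summed FPKM and 0.15 with apportioned depth.

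Several metabolic and housekeeping lists also lay below the median of all genes. Over all genes listed in both libraries, 2.04% passed the threshold upward and 1.48% downward, and 54.5% were above no change. Glycolysis had a median of -0.50 over 22 genes, 17 of them below no change, with 1 past the threshold downward (PGK1 at -1.85, or -1.11 apportioned) and none upward. GAPDH, often used as a reference gene in PCR, had 1402 FPKM (1344 to 1461) in NaB+Cur+Pip and 2920 FPKM (2831 to 3008) in NaB, a log2 fold change of -1.06. Sterol synthesis had a median of -0.34 over 23 genes, 19 of them below no change and 2 past the threshold upward. Ribosome biogenesis had a median of -0.29 over 32 genes, 27 of them below no change and none past the threshold. The sterol genes past it went against the rest of their list, as the HMG-CoA synthase gene HMGCS1 was at 1.60 (1.48 apportioned, just under the threshold) and the desaturase gene SC5D at 1.78 (0.09 apportioned). On the other side, proteasome subunits had a median of 0.22 over 31 genes, with 24 above no change. NRF2 targets had a median of 0.27 over 23 genes, 15 of them above no change and 1 past the threshold, the oxidative stress growth inhibitor OSGIN1 at 26.1 FPKM in NaB+Cur+Pip and 5.99 FPKM in NaB. In that list the thioredoxin reductase TXNRD1 was at 0.27 and sulfiredoxin SRXN1 at 0.76. The remaining lists, among them tubulins, histone acetylation enzymes, tRNA synthetases and junction genes, had medians between -0.43 (AHR targets) and 0.52 (metallothioneins and zinc transport, 4 genes). Cytosolic ribosomal proteins had a median of -0.04 over 50 genes, with 2 past the threshold in each direction, and these genes have many pseudogene copies.

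**Figure D3:**
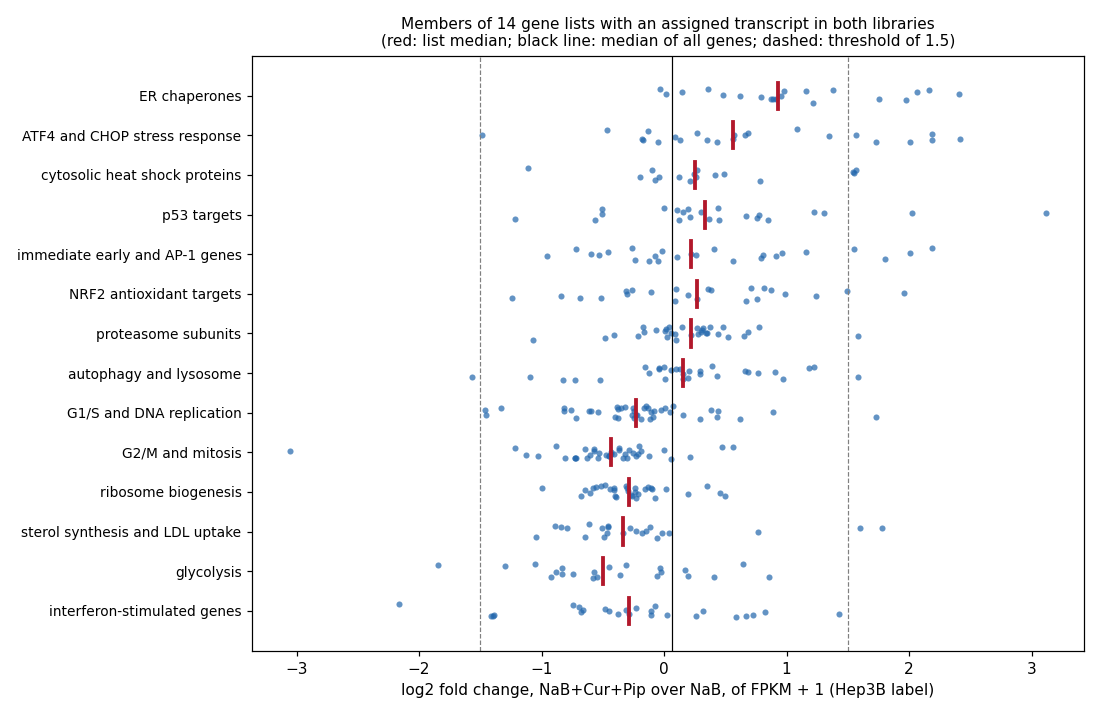
Log2 fold change of NaB+Cur+Pip over NaB (horizontal axis) of each member of 14 gene lists, 1 point for each gene with an assigned transcript in both Hep3B-labelled libraries. Red bars are list medians, the black line is the median of all genes (0.06) and dashed lines are the threshold of 1.5; the ER chaperone median is 0.93 and the G2/M median is -0.43.

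The same addition was available in 2 pairs of libraries that share none with the comparison: Cur+Pip over control under the Hep3B label, and NaB+Cur+Pip (2500 μM NaB) over NaB in HepG2. Of 179 genes higher here and listed in both libraries of the untreated pair, 135 (75.4%) were above no change there, beside 4948 of the 10317 genes listed in all 4 libraries. In that pair 23 of the 179 (12.8%) passed the threshold upward and 3 downward, where the background was 1.74% upward and 1.27% downward. In HepG2, 103 of 169 genes (60.9%) were above no change, beside 49.7% of 9067, and 41 (24.3%) passed the threshold upward and 13 downward, where the background was 4.16% upward and 4.78% downward. The genes lower here gave a different picture. Without NaB, 55 of 121 were above no change, 15 passed upward and 8 downward, and in HepG2 43 of 99 were above no change, 12 passed upward and 15 downward. Across all genes listed, the folds of the comparison had a Pearson r of 0.21 with those of the untreated pair and of 0.20 with those of HepG2, a description across genes, which are not replicates and share their library's assembly.

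**Figure D4:**
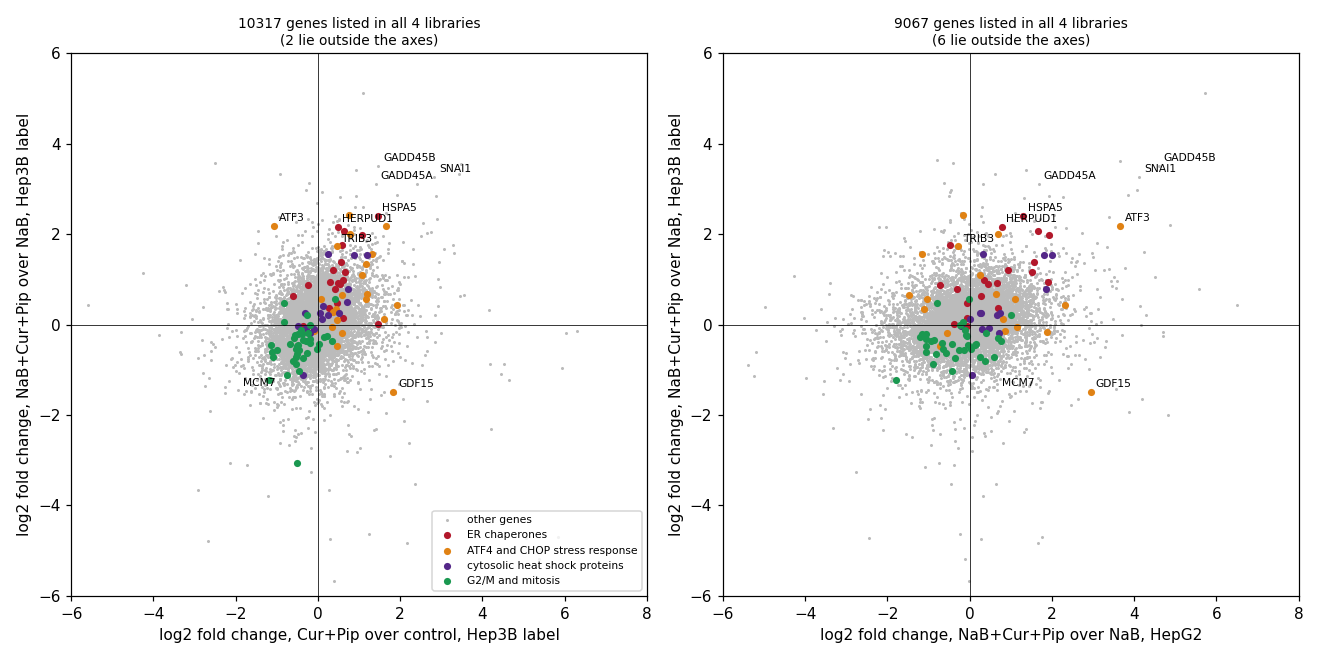
Log2 fold change of NaB+Cur+Pip over NaB under the Hep3B label (vertical axes) against that of Cur+Pip over control under the same label (left, 10317 genes) and that of NaB+Cur+Pip over NaB in HepG2 (right, 9067 genes), with 4 gene lists in colour. HSPA5, GADD45A, GADD45B and SNAI1 lie at the upper right in both panels, whereas GDF15 lies at the lower right in both and ATF3 lies left of 0 in the left panel; 2 and 6 genes lie outside the axes.

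By group, 17 of 20 ER chaperones were above no change when Cur and Pip were added to untreated cells (median 0.51) and 13 of 20 in HepG2 (median 0.55). HSPA5 had log2 fold changes of 2.41 here, 1.45 without NaB and 1.30 in HepG2, of which only the first passed the threshold. DNAJB9 had 1.97 here, 1.08 without NaB and 1.93 in HepG2. SDF2L1 had 1.75 here, 0.59 without NaB and -0.47 in HepG2, and these differences were not tested. Few G2/M genes were above no change in any of the 3 pairs, 4 of 39 here, 5 of 39 without NaB (median -0.49) and 10 of 37 in HepG2 (median -0.25).

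The medians of the immediate early genes lay far apart between the pairs. Of 23 members listed in HepG2, 18 passed the threshold upward there (median 2.38), whereas without NaB under the Hep3B label 4 of 24 passed downward and none upward (median -0.28). The background was 4.16% upward in HepG2 and 1.27% downward without NaB. ATF3 had 18.7 FPKM in Cur+Pip and 40.3 FPKM in the control, a log2 fold change of -1.07, beside 2.19 here. FOSB had a log2 fold change of -1.46 without NaB and 3.10 in HepG2. CCN2 (CTGF), the connective tissue growth factor, was at 1.55 here, -1.53 without NaB and 2.66 in HepG2. For these genes the level in NaB alone was lower than in the control, as FOSB had 3.31 FPKM in NaB and 19.4 FPKM in the control.

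Among the 10317 genes listed in all 4 Hep3B-labelled libraries, the fold of the addition to NaB exceeded that of the addition to untreated cells by over 1.5 for 287 genes and fell short of it by over 1.5 for 285, while 85.5% were within 1. With apportioned depth 57 and 88 of these remained. The 10 genes at the ends of that difference were pseudogenes (RPL10AP2, RPL37AP1, YBX1P2, NPM1P46 and GAPDHP65) or the short-transcript genes VPS53, RPS29, TUBA1A and SNRPE, besides SDHD, which encodes a membrane anchor of succinate dehydrogenase and had 0.68 FPKM in Cur+Pip and 80.8 FPKM in the control. Reads of a pseudogene and of its parent gene cannot be told apart with certainty, and no pattern is read from them.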

How the data were processed

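RNA was extracted with an RNeasy kit, and directional libraries (NEBNext Ultra II) were sequenced as read pairs. The authors mapped reads to GRCh38 with STAR under default settings and ran Cufflinks on each library separately to assemble transcripts. FastQC and Cuffdiff are also named in the submitters' processing notes, with no version stated in the sources used here. Deposited files hold FPKM per assembled transcript with a 95% interval and coverage, without gene names or counts. Each transcript was assigned to the GENCODE release 44 gene that held at least 50% of its exonic bases on the same strand (bedtools 2.31.1), FPKM were summed per gene, and intervals were added in quadrature (Python 3.11.15, pandas 2.3.3). Of the splice junctions, 92.9% in NaB+Cur+Pip and 93.9% in NaB were in the annotation. Genes with at least 1 FPKM in either library were compared with a pseudocount of 1. Apportioned depth spread each transcript's FPKM over the annotated exons of all genes it covered, per base of their exon union. Fragments were estimated from coverage and length of transcripts of 300 nt or longer, and depth limits precision as the Cufflinks interval shows. Fold functions were tested on simulated data. With 1 library per group no p-value was computed. Named genes were 6 that the study measured by PCR or used as a reference (1 of them is not reported here), the 15 highest and 15 lowest protein-coding genes past the threshold with at least 5 FPKM, disjoint intervals and the same call by apportioned depth, as many as 3 members at either end of each of 30 lists with the same direction by apportioned depth, lncRNA genes under the conditions for coding genes, and the 5 largest and 5 smallest differences between the additions with and without NaB. Genes named outside that rule, among them further members of the lists such as SDF2L1, DNAJC3, HSP90B1, TRIB3, SESN2, PHGDH, DDIT3, ASNS and HSPA8, were chosen after their values were seen. The genes, lists and rules were chosen with earlier results of these data known. Alternatives were the pseudocount, the filter, scaling, TPM, subsets of transcripts and the threshold.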

Additional observations from a re-analysis of the deposited data

Results flagged for a closer look

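For 3 of the genes with the largest folds that were listed in all 4 Hep3B-labelled libraries, the same addition passed the threshold in the opposite direction in another pair. The difference was not tested, since each library stands alone. RPS29, at 3.57 when Cur and Pip were added to NaB under the Hep3B label, was at -7.13 in HepG2 and -2.4999 in untreated Hep3B-labelled cells. SNRPE, at -4.82, was at 1.66 in HepG2 and 2.17 in untreated Hep3B-labelled cells. TUBA1A, at -4.72, was at 5.06 in untreated Hep3B-labelled cells and, in the same direction as here, at -2.45 in HepG2. All 3 had a leading transcript under 600 nt in NaB+Cur+Pip or in NaB.

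Single-exon transcripts assigned to no gene, which enter no comparison above, were 18.4% of transcripts in Hep3B-labelled NaB+Cur+Pip, against 10.1% in NaB, 12.4% in Cur+Pip and 7.55% in the control. In HepG2 they were 23.5% with NaB+Cur+Pip and 14.6% with NaB.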

How the results depend on the processing

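The number of genes past the threshold depended on the processing more than the direction of named genes did. The number of genes higher with Cur and Pip added (714) and of genes lower with Cur and Pip added (591) became 1156 higher with a pseudocount of 0.1, and 309 higher and 306 lower with a pseudocount of 5. TPM gave 1275 higher genes, and apportioned depth gave 336 higher and 278 lower. Genes with an assigned transcript in both libraries gave 224 and 163, and protein-coding genes alone gave 434 higher. A threshold of 1 gave 1407 and 1033, and a threshold of 2 gave 467 higher. The count that needed both measures and both libraries, 80 and 64, was chosen after seeing the data. The other alternatives kept the counts within 1.5 times. The median of all genes ranged from 0.01 under median-of-ratios scaling to 0.28 with TPM. Of 65 named genes past the threshold, 23 were past it under all 9 alternatives run for genes, and the rest lost the call or had no value under at least 1. A pseudocount of 5 ended the calls of CHAC1 (1.22), BBC3 (1.43), FOSB (1.20), PTGS2 (-1.45), SCAT8 (-0.87) and DOK3 (-1.20), and the highest transcript alone ended those of HSPA5 (1.22), JUN (1.10) and SCAT8 (-1.42). HSPA6 and JUN had no value without single-exon transcripts. TUBA1A, at -4.72, was reversed with TPM (0.40) and without transcripts under 300 nt (0.20). No paired analysis was possible because each group has 1 library, and for the same reason no replicate could be left out.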

Other observations

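Several further genes differed by both measures, and of these CLU, ADRM1, GEM and TLE5 were chosen after their values were seen. Clusterin (CLU), a secreted chaperone, had 157 FPKM (149 to 164) in NaB+Cur+Pip and 25.1 FPKM (23.3 to 26.9) in NaB, a log2 fold change of 2.59, and it had 155 FPKM in Cur+Pip and 72.1 FPKM in the control. ADRM1, the ubiquitin receptor of the proteasome, had 293 FPKM in NaB+Cur+Pip and 85.5 FPKM in NaB, a log2 fold change of 1.76, with 131 FPKM in Cur+Pip and 76.0 FPKM in the control. Both were higher with Cur and Pip in each pair under the Hep3B label.

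The GTPase GEM had 16.1 FPKM in NaB+Cur+Pip and 2.29 FPKM in NaB, a log2 fold change of 2.38, beside 1.40 without NaB and 3.39 in HepG2. AMDHD2, an enzyme of N-acetylglucosamine breakdown, had 50.1 FPKM in NaB+Cur+Pip and 5.66 FPKM in NaB, a log2 fold change of 2.94, and was near its control level of 9.70 FPKM in Cur+Pip, at 10.5 FPKM. Its leading transcript overlapped 4 coding genes in NaB+Cur+Pip and 2 in NaB. AMDHD2 had no value when transcripts over several coding genes were left out, so its level is uncertain to that extent. The autophagy gene GABARAPL1 had 104 FPKM in NaB+Cur+Pip and 34.2 FPKM in NaB, a log2 fold change of 1.58, beside 0.21 without NaB and 2.14 in HepG2. TLE5, a corepressor of the Groucho family, had 78.1 FPKM in NaB+Cur+Pip and 240.6 FPKM in NaB, a log2 fold change of -1.61.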
